A study of Homo sapiens with 4 samples.

Results

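The 44 genes described here encode nucleoporins, the proteins that build the nuclear pore, and the karyopherins that carry cargo through it. They are the genes of the table whose symbol starts with NUP, KPNA, KPNB or IPO and a digit, or with XPO and a digit or T, and they are 44 of 17215 genes. RNA sequencing compared the human triple-negative breast cancer line Cal51 with the doxorubicin-resistant Cal51R with 2 libraries of each line and no other treatment, dose or time given in the labels. The stated purpose was to find a deubiquitinase tied to resistance against doxorubicin, a DNA-damaging anthracycline used in chemotherapy. The labels leave out how Cal51R was selected, whether it is 1 clone and whether the drug was present. No label ties the libraries of a line to separate cultures, and p-values therefore reflect only how far these libraries differ, which may be technical. In bulk RNA a lower level can mean less RNA in each cell or fewer cells that hold it, and these cannot be told apart.

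The nuclear pore is a ring-shaped channel through the nuclear envelope. Scaffold nucleoporins form its outer and inner rings, membrane nucleoporins anchor it, and nucleoporins rich in phenylalanine-glycine (FG) repeats fill the channel. Importins bind cargo in the cytoplasm and release it in the nucleus when they meet the small GTPase RAN bound to GTP. Exportins bind cargo together with RAN-GTP and let go of it in the cytoplasm. Importin alpha proteins, the KPNA family, read the classical nuclear localisation signal and are themselves carried by importin beta, KPNB1. The exportin CSE1L returns importin alpha to the cytoplasm.

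The promoters of 4 genes that fell furthest among those matched and of 1 that rose are shown first, since the results turn on these genes. Of the 44 genes, 38 had an entry in the RefSeq promoter table for GRCh38.p14, and 9 of them had more than 1. Each window runs from 250 bases before to 50 bases after the annotated start, and for NUP50 the promoter with the lower coordinates is given. Capitals mark 3 motifs found on either strand, the CCAAT box (CCAAT or ATTGG), an ETS core (CCGGAAG or CTTCCGG) and an NRF1 core (GCATGCG or CGCATGC), which can overlap each other.
IPO5 (chr13:97953425-97953724, + strand): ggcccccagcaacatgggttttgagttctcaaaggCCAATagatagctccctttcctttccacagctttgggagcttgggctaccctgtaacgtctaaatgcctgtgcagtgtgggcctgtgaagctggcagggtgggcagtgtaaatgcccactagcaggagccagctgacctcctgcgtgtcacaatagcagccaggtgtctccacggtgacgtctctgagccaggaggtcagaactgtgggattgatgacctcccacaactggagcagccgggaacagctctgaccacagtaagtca
NUP50 (chr22:45163675-45163974, + strand): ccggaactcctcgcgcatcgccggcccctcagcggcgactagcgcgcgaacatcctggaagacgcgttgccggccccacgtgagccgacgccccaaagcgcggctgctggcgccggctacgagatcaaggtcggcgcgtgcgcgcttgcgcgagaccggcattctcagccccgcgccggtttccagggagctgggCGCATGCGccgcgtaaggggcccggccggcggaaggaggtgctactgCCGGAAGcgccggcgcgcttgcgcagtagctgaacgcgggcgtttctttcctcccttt
NUP205 (chr7:135557667-135557966, + strand): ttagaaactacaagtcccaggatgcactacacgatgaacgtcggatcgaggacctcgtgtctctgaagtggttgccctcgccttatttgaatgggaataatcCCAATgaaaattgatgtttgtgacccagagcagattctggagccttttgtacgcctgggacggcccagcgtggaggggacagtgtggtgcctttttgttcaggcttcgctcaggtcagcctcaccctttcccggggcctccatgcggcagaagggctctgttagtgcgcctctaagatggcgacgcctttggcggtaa
NUP107 (chr12:68686728-68687027, + strand): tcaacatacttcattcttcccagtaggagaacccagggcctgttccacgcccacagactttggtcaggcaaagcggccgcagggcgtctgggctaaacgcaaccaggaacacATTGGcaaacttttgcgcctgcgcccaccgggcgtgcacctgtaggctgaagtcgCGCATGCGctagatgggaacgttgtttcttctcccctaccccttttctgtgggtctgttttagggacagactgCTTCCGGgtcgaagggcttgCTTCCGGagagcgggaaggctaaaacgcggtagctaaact
IPO7 (chr11:9384402-9384701, + strand): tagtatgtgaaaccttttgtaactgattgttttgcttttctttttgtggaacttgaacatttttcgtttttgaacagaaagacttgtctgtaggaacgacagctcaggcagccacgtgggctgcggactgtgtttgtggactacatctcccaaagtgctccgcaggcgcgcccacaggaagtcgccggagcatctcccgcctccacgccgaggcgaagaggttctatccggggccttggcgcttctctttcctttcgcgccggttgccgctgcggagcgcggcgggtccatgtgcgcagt
The IPO5, NUP205 and NUP107 windows held a CCAAT box, the NUP107 and first NUP50 windows held ETS and NRF1 cores, and the IPO7 window held none of the 3. Over the 48 promoters of the 38 genes, 24 (50%) held a CCAAT box, against 34.6% of all 35116 promoters of that length. Windows of the same gene can overlap, as those of NUP98, XPO4 and NUP210L do, so that the same box counts more than once. By gene, 19 of the 38 held a CCAAT box. The ETS core was in 12 of the 48 (25.0%, against 10.3%) and the NRF1 core in 4 (8.33%, against 3.91%). Other motifs searched on both strands were the GC box GGGCGG (47.9%, against 45%), the E-box CACGTG (12.5%, against 7.26%), the E2F forms TTTGGCG (10.4%, against 1.92%) and TTTCCCG (10.4%, against 4.29%), the YY1 motif AAGATGG (10.4%, against 5.84%) and the TATA box TATAAA (8.33%, against 11.5%). Of the windows shown, those of IPO7 and NUP50 held the E-box, and that of NUP205 held both E2F forms and the YY1 motif. Of the genes with a promoter entry, 3 rose and 21 fell, and a CCAAT box was present in 2 of the 3 and 11 of the 21. The median GC content was 62.8% in the 48 promoters and 58.7% in all of them.

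The libraries held 21637102 and 18537823 counts for Cal51 and 17852484 and 19854907 for Cal51R. The median of the 44 genes had 1611 to 2630 reads a library, and 3 reads, taken as the limit of detection, came to 0.139 to 0.174 CPM (counts scaled to a common library size). As markers of the line, KRT8 was at 8866 and 9975 TPM (a unit per transcript length, in which genes can be compared) in Cal51 and 5437 and 4881 TPM in Cal51R, and KRT18 was at 8117 and 8352 against 4955 and 4386 TPM. EPCAM was at 259.8 and 245 TPM in Cal51 and 122 and 129.8 TPM in Cal51R, and KRT19 went the other way, from 5.55 and 5.10 to 147.9 and 149 TPM. Of the mesenchymal markers, FN1 was at 71.1 and 56.8 TPM in Cal51 and 406 and 455 TPM in Cal51R, while VIM (561 and 579 against 438 and 469 TPM) and CDH2 (1.61 and 1.53 against 0.20 and 0.39 TPM) were lower in Cal51R. The epithelial cadherin CDH1 was low, at 0.42 to 1.62 TPM (17 to 63 reads a library), and ESR1, the oestrogen receptor, was at 0.76 to 2.09 TPM. ERBB2, the gene of HER2, was at 83.85 and 79.36 TPM in Cal51 and 90.93 and 83.57 TPM in Cal51R, and the lines overlapped. The leukocyte gene PTPRC was at 0.28 to 1.17 TPM. The endothelial markers summed to 29.3 to 33.1 TPM in Cal51 and 93.1 to 103.6 TPM in Cal51R, almost all of it PECAM1, and the fibroblast markers to 625 to 716.5 and 191.7 to 200.4 TPM, almost all of it COL1A2. Among the fibroblast markers DCN was at most 0.11 TPM and LUM at most 0.05 TPM, and the part of these differences in the results was not tested.

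More of these genes were lower in Cal51R than higher. Of the 42 that could be tested, 24 fell, 5 rose and 13 did not pass (adjusted p under 0.05, quasi-likelihood test of edgeR, TMM scaling). Over all 13674 genes tested, 70.8% passed, 35.3% higher and 35.5% lower, so that 69.0% of the transport genes is near the background while the 57.1% lower and 11.9% higher are not split as the background is. The median log2 fold change was -0.34 for the 42 genes and 0.02 over all genes tested. The change was mostly of moderate size: 4 genes fell at least 2-fold and 0 rose as much, where 23.6% of all genes tested did one or the other, and 8 fell and 2 rose at least 1.5-fold, where 41.7% of all genes did. The median absolute log2 fold change was 0.40, against 0.50 over all genes. In all 29 genes that passed, the TMM-scaled CPM of the lines did not overlap, but in 7 of the 29 the TPM did (IPO11, KPNA1, KPNA4, NUP155, NUP37, NUP98 and XPO1). Of the 42 genes 34 (81.0%) had no overlap, and of all genes tested 85%.

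How many genes rose or fell turned on the scaling. When counts were scaled by library totals alone, the median of all genes shifted up by 0.20 (log2), and 15 of the 42 genes passed as higher and 19 as lower, where 46.8% and 25.5% of all genes did. The median of the 42 genes then was -0.14 and that of all genes 0.21, so that the distance between the medians was -0.36 under both scalings. Over the 14 alternatives that distance ran from -0.41 to -0.32. Without Cal51 replicate 2, 3 genes rose and 22 fell. Values that follow use TMM scaling, and SEs of the 42 genes had a median of 0.08 (log2).

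With TMM scaling genes moved in both directions within the Y complex, the cytoplasmic filaments, importin alpha and the importins, and none of the 44 rose among those tested of the inner ring, the channel, the membrane ring, the basket (NUP50 and NUP153) and the exportins. With library totals NUP62, NUP54, NUP153 and XPOT of these groups passed as higher. The 22 nucleoporins tested had a median of -0.20, with 11 lower and 2 higher. The 20 receptors tested had a median of -0.37, with 13 lower and 3 higher, where 35.5% and 35.3% of all genes tested were. Whether the nucleoporins and the receptors differ was not tested.

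**Figure D1:**
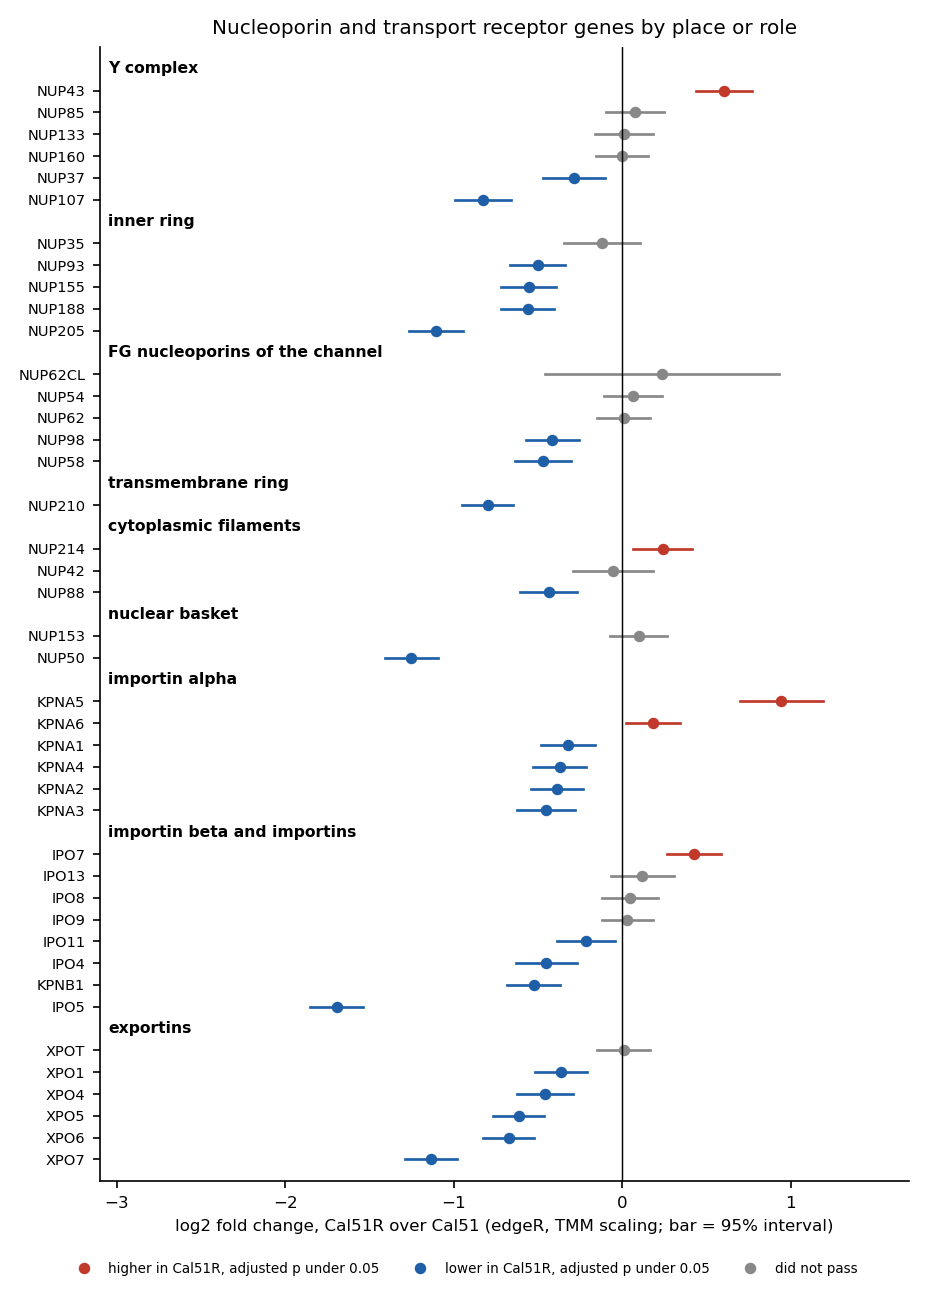
Fold change of each of the 42 tested genes, grouped by place in the pore or by role; the x axis is the log2 fold change of Cal51R over Cal51, points are edgeR estimates with TMM scaling and bars their 95% intervals. IPO5 lies furthest to the left at -1.69 and KPNA5 furthest to the right at 0.95.

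**Figure D2:**
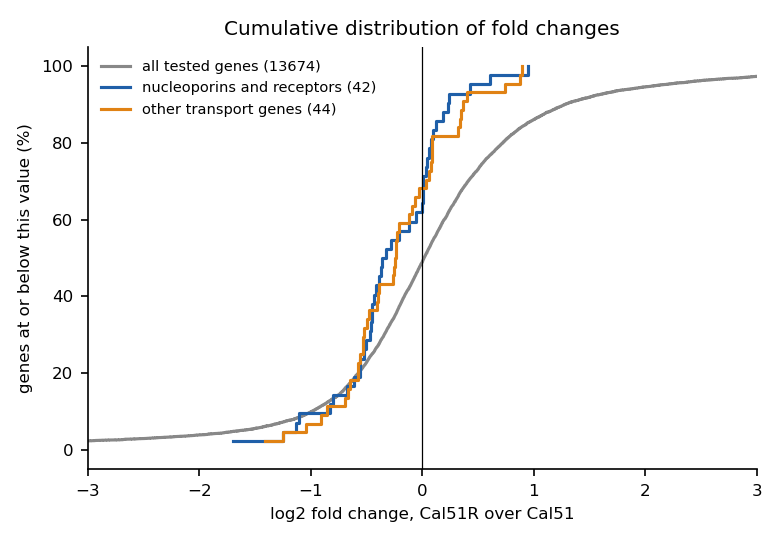
Cumulative share of genes (y axis, percent) at or below a log2 fold change (x axis) for all 13674 tested genes, the 42 nucleoporin and receptor genes, and 44 other nuclear transport genes. At 0 and to its right the curves of both transport gene groups lie above that of all genes, and they end at 0.95 and 0.90 while that of all genes goes on.

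Among all genes tested, 35.5% fell and 35.3% rose. Of the 6 Y complex genes, which build the outer ring of the pore scaffold, 2 fell, 1 rose and 3 did not pass. NUP107, a core subunit of its stem (gene 57122, chromosome 12, 68686978 to 68745809), was at 103 and 103 CPM in Cal51 and 56.5 and 60.0 CPM in Cal51R. Both Cal51 libraries were above both Cal51R libraries, a log2 change of -0.83 ± 0.08 (SE) (adjusted p in edgeR = 8.83e-08). NUP43, a small beta-propeller subunit of the same complex (gene 348995, chromosome 6, 149724315 to 149749358), went the other way, at 94.2 and 87.3 CPM in Cal51 and 132 and 145 CPM in Cal51R. The log2 change was 0.61 ± 0.08 (SE) (adjusted p in edgeR = 3.88e-06), and the lines did not overlap. Within each library, where scaling cancels, NUP107 was at 1.34 ± 0.0422 times the TPM of NUP43 in Cal51 and 0.488 ± 0.00954 times in Cal51R (mean ± SD, n = 2). NUP37, another peripheral subunit, was at 61.0 and 69.3 CPM in Cal51 and 54.7 and 52.1 CPM in Cal51R and fell 1.22-fold. That call was lost with library totals, on FPKM and without Cal51 replicate 2 (adjusted p 8.87e-06 to 0.388 over the 14 alternatives).

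The other Y complex subunits in the set did not pass. NUP133 was at 85.7 and 83.0 CPM in Cal51 and 80.4 and 89.4 CPM in Cal51R, with a 95% interval of 0.895 to 1.13 for the ratio of Cal51R to Cal51. NUP160 had an interval of 0.9 to 1.11 and NUP85 one of 0.935 to 1.19. With library totals NUP133, NUP160 and NUP85 passed as higher. Subunits of the complex named otherwise were lower: SEC13, shared with the COPII coat, was at 130.3 and 139 CPM in Cal51 and 76.7 and 66.6 CPM in Cal51R (a log2 change of -0.91 ± 0.08 (SE)), AHCTF1, which tethers the complex to chromatin, fell 1.57-fold, and SEH1L fell 1.49-fold. Counting these 3, the Y complex genes tested thus ran from -0.91 to 0.61 on the log2 scale.

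**Figure D3:**
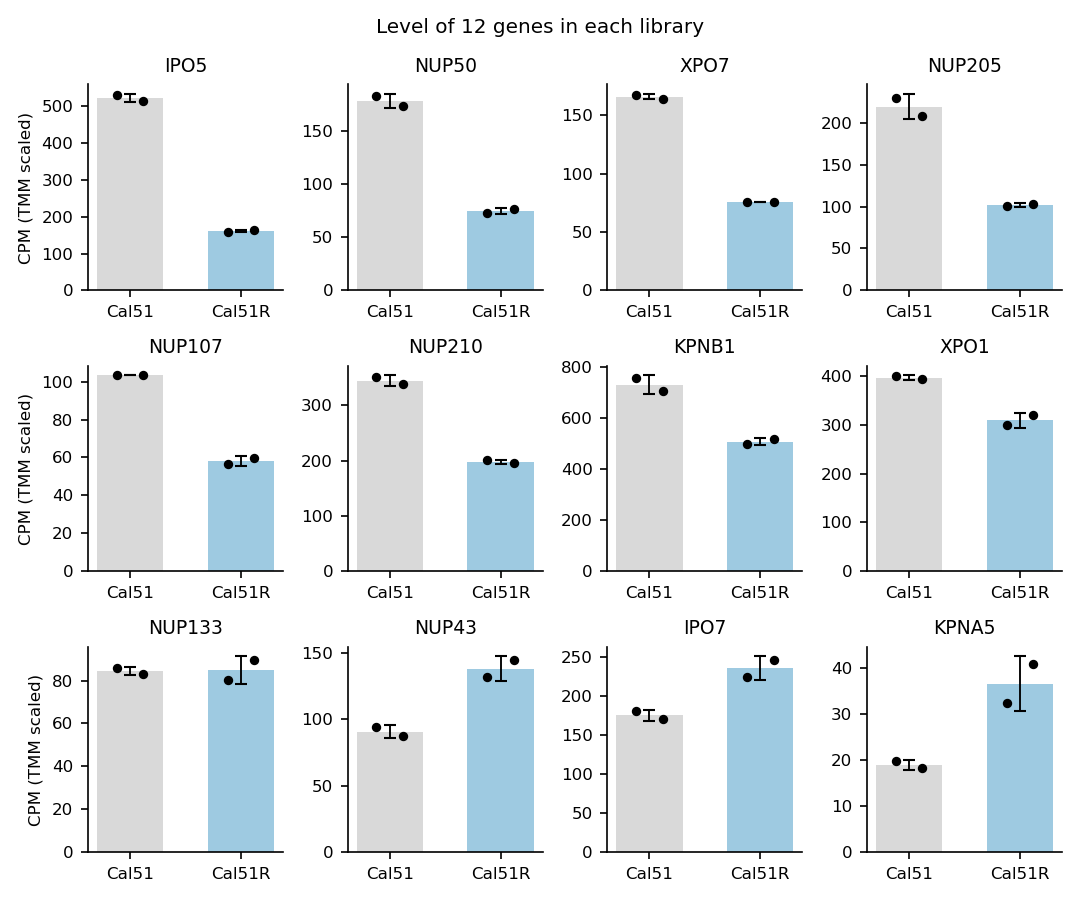
Level of 12 genes in each library in TMM-scaled CPM (y axis, linear from 0); points are libraries, bars the mean of 2 and error bars the SD. IPO5, NUP50, XPO7, NUP205, NUP107, NUP210, KPNB1 and XPO1 are lower in both Cal51R libraries, NUP43, IPO7 and KPNA5 are higher, and NUP133 overlaps.

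In the inner ring, the scaffold that lines the channel, 4 of 5 genes fell (all genes tested: 35.5%) and NUP35 did not pass. NUP205, one of its large scaffold proteins (gene 23165, chromosome 7, 135557917 to 135648753), was at 229 and 208 CPM in Cal51 and 100.1 and 103 CPM in Cal51R. It was lower in both Cal51R libraries, with a log2 change of -1.11 ± 0.08 (SE) (adjusted p in edgeR = 1.92e-09). NUP188, the paralogue of NUP205 that takes a like place in the ring, was at 112 and 113 CPM in Cal51 and 77.3 and 75.6 CPM in Cal51R and also fell, with a log2 fold change of -0.56 ± 0.07 (SE). The ratio of NUP205 to NUP188 by TPM was 1.76 ± 0.130 in Cal51 and 1.21 ± 0.0470 in Cal51R (mean ± SD, n = 2), without overlap.

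NUP93, which joins the inner ring to the channel proteins and was the most abundant nucleoporin of the set by TPM, was at 208 and 208 CPM in Cal51 and 155 and 139 CPM in Cal51R (a log2 change of -0.50 ± 0.08 (SE)). NUP155, which contacts the membrane, was at 140.2 and 127 CPM in Cal51 and 89.1 and 93.1 CPM in Cal51R and had a log2 fold change of -0.56 ± 0.08 (SE). Its TPM were 46.1 and 35.6 TPM in Cal51 and 36.2 and 38.2 TPM in Cal51R, so that on that scale the lines overlapped, and it did not pass on FPKM (adjusted p 2.66e-23 to 0.145 over the alternatives). NUP35 was at 20.1 and 19.3 CPM in Cal51 and 18.9 and 17.5 CPM in Cal51R, with a 95% interval of 0.788 to 1.08 for the ratio.

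Among the FG nucleoporins of the channel, NUP58 and NUP98 fell and NUP62, NUP54 and NUP62CL did not pass. NUP62, NUP54 and NUP58 form the trimer that fills the central channel. NUP58 was at 122 and 116 CPM in Cal51 and 81.6 and 90.1 CPM in Cal51R, a log2 change of -0.47 ± 0.08 (SE). NUP54 was at 59.3 and 56.2 CPM in Cal51 and 59.9 and 60.7 CPM in Cal51R and NUP62 at 143 and 142 CPM in Cal51 and 149.6 and 137 CPM in Cal51R. The 95% intervals for the ratio were 0.926 to 1.18 for NUP54 and 0.903 to 1.12 for NUP62, and both passed as higher with library totals. The span of NUP62 lies within that of IL4I1 and overlaps that of ATF5, whose log2 fold changes were 1.63 and 1.06, and since no source states stranded counting, reads cannot be told apart where exons overlap. NUP98, whose precursor protein is cleaved into the FG nucleoporin NUP98 and the Y complex subunit NUP96, was at 278 and 255 CPM in Cal51 and 197 and 202 CPM in Cal51R (a log2 change of -0.42 ± 0.07 (SE)). By TPM its lines overlapped. NUP62CL, a short relative of NUP62, was rare at 20 to 27 reads a library.

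NUP210, a membrane-spanning nucleoporin (gene 23225, chromosome 3, 13316235 to 13420322), was at 351 and 338 CPM in Cal51 and 201 and 196 CPM in Cal51R. Both Cal51R libraries were below both Cal51 libraries, with a log2 change of -0.80 ± 0.07 (SE) (adjusted p in edgeR = 5.09e-08). NDC1, another membrane nucleoporin, fell 1.81-fold, and POM121 and POM121C, near-identical copies whose reads can be split between them, fell 1.19-fold and 1.17-fold. By TPM the lines overlapped for POM121 and for POM121C. NUP210L, a testis relative of NUP210, had 0 reads in 3 libraries and 1 read in Cal51R replicate 2, below the limit of 3 reads, and was not tested.

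The nuclear basket and the cytoplasmic filaments, the faces of the pore where cargo is released, each held genes that moved apart. NUP50, a mobile basket protein that binds importin alpha and helps to free its cargo (gene 10762, chromosome 22, 45163925 to 45188017), was at 183 and 174 CPM in Cal51 and 73.2 and 76.7 CPM in Cal51R. It was lower in both Cal51R libraries, with a log2 change of -1.25 ± 0.08 (SE) (adjusted p in edgeR = 3.09e-10). NUP153, the FG protein that anchors the basket and binds NUP50, was at 149 and 132 CPM in Cal51 and 145 and 156 CPM in Cal51R and did not pass (95% interval of the ratio 0.951 to 1.2). NUP50 thus stood at 1.46 ± 0.0807 times the TPM of NUP153 in Cal51 and 0.581 ± 0.0135 times in Cal51R (mean ± SD, n = 2). TPR, the coiled-coil protein that forms the basket fibres, was at 105 and 111 CPM in Cal51 and 133 and 145 CPM in Cal51R and rose 1.29-fold. The RefSeq table lists 4 pseudogenes of NUP50, with which reads can be shared. It also lists 3 each for NUP210, KPNA2 and XPOT, 2 each for IPO7 and NUP35, and 1 each for IPO5, IPO8, KPNA4, KPNB1 and NUP58.

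On the cytoplasmic side NUP88 was at 73.7 and 72.4 CPM in Cal51 and 53.7 and 54.2 CPM in Cal51R (a log2 change of -0.44 ± 0.08 (SE)) and its partner NUP214, an FG protein, was at 68.8 and 63.4 CPM in Cal51 and 80.3 and 75.9 CPM in Cal51R (a log2 change of 0.24 ± 0.08 (SE)). NUP88 fell and NUP214 rose by this test. NUP88 did not pass on FPKM (adjusted p 2.21e-12 to 0.0762 over the alternatives), and NUP214 did not pass without Cal51 replicate 2 or with a replicate block (8.21e-05 to 0.257). RANBP2, the large filament protein with RAN-binding domains, was at 169.8 and 156 CPM in Cal51 and 128 and 149 CPM in Cal51R and fell 1.17-fold. Its TPM were 34.9 and 30.4 in Cal51 and 28.9 and 35.8 in Cal51R, so that on that scale the lines overlapped. NUP42, which works with the mRNA export factor GLE1, was at 30.2 and 33.4 CPM in Cal51 and 26.9 and 34.2 CPM in Cal51R, overlapped between the lines and did not pass, except without Cal51R replicate 2, where it passed as lower (adjusted p 0.0371 to 0.966 over the alternatives).

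Importin alpha RNA was dominated by 1 gene in both lines. KPNA2, known for high levels in dividing cells, made up 84.5% ± 0.593 of the summed TPM of the 7 KPNA genes in Cal51 and 82.5% ± 0.903 in Cal51R (mean ± SD, n = 2). All 6 KPNA genes that could be tested passed, 4 lower and 2 higher, where 70.8% of all genes tested passed. KPNA2 was at 829 and 815 CPM in Cal51 and 641 and 616 CPM in Cal51R, a log2 change of -0.39 ± 0.07 (SE). KPNA3 was at 91.8 and 82.4 CPM in Cal51 and 62.4 and 65.0 CPM in Cal51R and KPNA4, its closest relative, at 137 and 129 CPM in Cal51 and 102 and 104 CPM in Cal51R. They fell 1.37-fold and 1.29-fold, and KPNA1 fell 1.25-fold. The calls of KPNA1 and KPNA4 were lost with library totals and on FPKM, and that of KPNA2 on FPKM, with adjusted p of at most 0.223, 0.103 and 0.0545 over the alternatives. KPNA2 has 3 listed pseudogenes.

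KPNA5 and KPNA6, which form a subfamily with KPNA1, were the KPNA genes that rose. KPNA5 (gene 3841, chromosome 6, 116681211 to 116741867) was at 19.8 and 18.2 CPM in Cal51 and 32.4 and 40.7 CPM in Cal51R. The lines did not overlap, and the log2 fold change of 0.95 ± 0.12 (SE) was the largest increase of the 42 genes (adjusted p in edgeR = 1.81e-06). KPNA5 was still a minor form, at 0.352% ± 0.0212 of the summed KPNA TPM in Cal51 and 0.870% ± 0.147 in Cal51R. KPNA6 was at 146 and 135 CPM in Cal51 and 154 and 165 CPM in Cal51R and rose 1.13-fold, a call lost in 6 of 14 alternatives, among them DESeq2 and the removal of Cal51 replicate 1, Cal51 replicate 2 or Cal51R replicate 2 (adjusted p 0.000171 to 0.420). Its share of KPNA TPM, which does not depend on scaling, was 3.79% ± 0.134 in Cal51 and 5.51% ± 0.370 in Cal51R. With 2 libraries a line an exact two-sided permutation test of a share cannot go below p = 0.33, so none was run. KPNA7, known from oocytes and early embryos, had 0 to 3 reads a library, at or under the limit of 3, and was not tested.

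**Figure D4:**
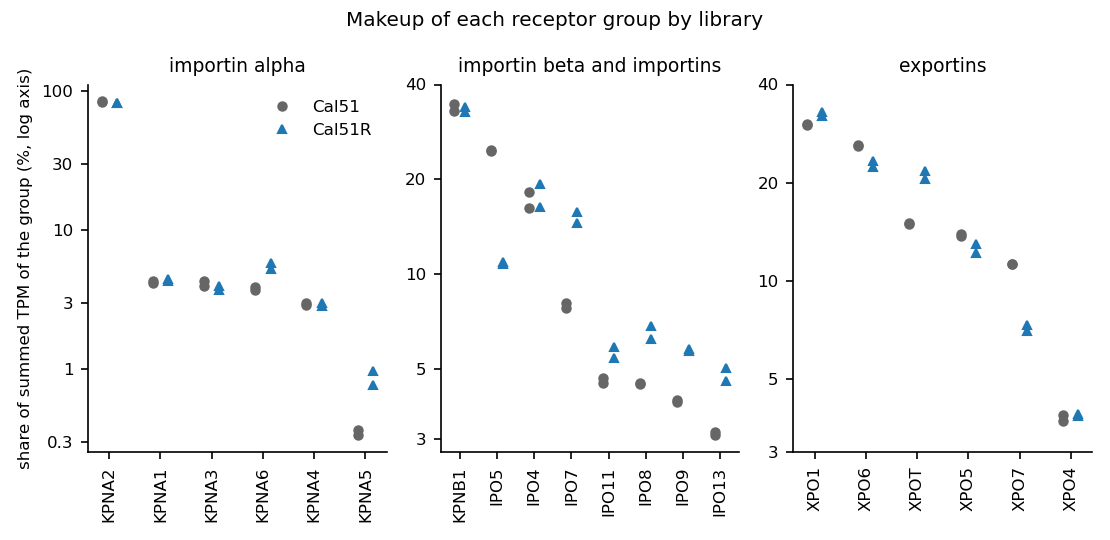
Share of each receptor gene in the summed TPM of its group (y axis, percent, log axis) in the Cal51 (circles) and Cal51R (triangles) libraries; KPNA7, with 0 to 3 reads, is left out. IPO5 and XPO7 take a smaller share in Cal51R, and IPO7, XPOT, KPNA5 and KPNA6 a larger one.

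The importin IPO5 fell most of all 42 genes. IPO5 (gene 3843, chromosome 13, 97953675 to 98024296), which imports ribosomal proteins and histones, was at 528 and 514 CPM in Cal51 and 159 and 163 CPM in Cal51R. Both Cal51R libraries were below both Cal51 libraries, and the fitted fall was 3.24-fold, a log2 change of -1.69 ± 0.07 (SE) (adjusted p in edgeR = 4.56e-12). In Cal51 it was second to KPNB1 among the 8 importins, at 24.7% ± 0.123 of their summed TPM, and in Cal51R it held 10.8% ± 0.0964. IPO7, which also imports ribosomal proteins, was at 180.3 and 170.1 CPM in Cal51 and 224 and 246 CPM in Cal51R and rose 1.34-fold (a log2 change of 0.43 ± 0.08 (SE)). The share of IPO7 went from 7.95% ± 0.208 to 15.1% ± 0.897, and IPO5 stood at 3.11 ± 0.0660 times the TPM of IPO7 in Cal51 and 0.717 ± 0.0361 times in Cal51R (mean ± SD, n = 2).

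KPNB1, importin beta itself, was at 757 and 706 CPM in Cal51 and 497 and 519 CPM in Cal51R, a log2 change of -0.53 ± 0.07 (SE). Its share of the importin TPM was 33.9% ± 1.17 in Cal51 and 33.4% ± 0.774 in Cal51R, and the lines overlapped. IPO4, a histone importer, was at 204 and 224 CPM in Cal51 and 169 and 144 CPM in Cal51R and fell 1.37-fold. IPO11 fell 1.16-fold, a call lost in 10 of 14 alternatives, among them the removal of Cal51 replicate 1, Cal51 replicate 2 or Cal51R replicate 1 (adjusted p 0.000676 to 0.902). IPO8, IPO9 and IPO13 did not pass, with 95% intervals for the ratio of 0.92 to 1.16, 0.921 to 1.13 and 0.954 to 1.24, and passed as higher with library totals and on FPKM.

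Of the 6 exportins, 5 fell and XPOT did not pass, where 35.5% of all genes tested fell. XPO7 (gene 23039, chromosome 8), an exportin with a broad range of cargo, was at 167 and 164 CPM in Cal51 and 75.4 and 75.4 CPM in Cal51R. It was lower in both Cal51R libraries, with a log2 change of -1.14 ± 0.07 (SE) (adjusted p in edgeR = 7.71e-10), and its share of the exportin TPM was 11.3% ± 0.0192 in Cal51 and 7.18% ± 0.193 in Cal51R. XPO6, the exportin of actin, was at 321 and 324 CPM in Cal51 and 208 and 196 CPM in Cal51R and fell 1.60-fold. XPO5, which exports precursors of microRNAs, was at 225 and 218 CPM in Cal51 and 146 and 143 CPM in Cal51R and fell 1.53-fold. The span of XPO5 overlaps that of POLR1C, which had a log2 fold change of -0.27. Shorter overlaps were those of NUP88 with RABEP1 (1508 bases, log2 fold change -0.68) and IPO4 with REC8 (705 bases, 0.07). NUP188 overlaps SH3GLB2 by 61 bases (-0.48), and IPO11 overlaps LRRC70, which has no value, by 2628.

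XPO1, the general exportin for proteins with a leucine-rich export signal and the most abundant of the 6 by TPM, was at 399 and 393 CPM in Cal51 and 298 and 319 CPM in Cal51R (a log2 change of -0.36 ± 0.07 (SE)). Its call was lost with library totals (adjusted p 1.8e-12 to 0.0564 over the alternatives), and its share of exportin TPM was larger in Cal51R, at 32.5% ± 0.502 against 30.1% ± 0.262. XPO4 fell 1.37-fold. XPOT, the exportin of transfer RNA, was at 291 and 287 CPM in Cal51 and 277 and 304 CPM in Cal51R, overlapped between the lines and had a 95% interval of 0.902 to 1.12 for the ratio. Its share of exportin TPM went from 15% ± 0.0840 to 21.1% ± 0.849, without overlap.

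A close paralogue outside the naming patterns moved against each of the receptors that fell furthest. RANBP6, the nearest relative of IPO5, was at 19.3 and 17.8 CPM in Cal51 and 32.0 and 36.2 CPM in Cal51R and rose 1.84-fold (a log2 change of 0.88 ± 0.10 (SE); adjusted p in edgeR = 1.25e-06). By TPM it made up 4.75% of the sum of IPO5 and RANBP6 in both Cal51 libraries and 21.3% and 23.5% in Cal51R. The sum itself was 203 and 187.2 TPM in Cal51 and 82.5 and 93.0 TPM in Cal51R. RANBP17, the nearest relative of XPO7, was at 8.27 and 9.25 CPM in Cal51 and 14.5 and 17.9 CPM in Cal51R and rose 1.86-fold (a log2 change of 0.90 ± 0.14 (SE); adjusted p in edgeR = 2.23e-05). Its part of the sum of XPO7 and RANBP17 was 7.35% and 7.71% in Cal51 and 23.2% and 29.2% in Cal51R. How reads were divided between such copies was not tested.

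The other genes of nuclear transport were taken from lists of pore components, the RAN cycle, further receptors and mRNA export. Of 44 tested, 26 fell, 8 rose and 10 did not pass (77.3% passed, against 70.8% of all genes tested), with a median log2 fold change of -0.24. By direction, 35.5% of all genes tested fell and 35.3% rose. With TMM scaling no RAN cycle gene rose: RAN was at 629 and 669 CPM in Cal51 and 469 and 409.7 CPM in Cal51R and fell 1.48-fold, its exchange factor RCC1 was at 217 and 222 CPM in Cal51 and 145 and 127 CPM in Cal51R and fell 1.61-fold, and RANGAP1 and NUTF2 fell 1.43-fold and 1.32-fold, while RANBP1, RANBP3 and RANGRF did not pass. The 9 further receptors did not lean lower, with 4 higher, 4 lower and a median log2 fold change of 0.06. Besides RANBP6 and RANBP17, SNUPN and HIKESHI rose 1.26-fold and 1.25-fold. Among those that fell, CSE1L, which recycles importin alpha, was at 343 and 348 CPM in Cal51 and 226 and 236 CPM in Cal51R and fell 1.49-fold, and TNPO3, the importin of splicing factors, was at 132 and 126 CPM in Cal51 and 62.0 and 63.2 CPM in Cal51R and fell 2.06-fold. Of 17 mRNA export genes 10 fell and 3 rose. The helicase gene DDX39A fell 2.66-fold and PCID2, of the TREX-2 complex, 2.38-fold, and THOC6 and THOC1, of the THO complex, rose 1.68-fold and 1.32-fold. With library totals 14 of the 44 passed as higher and 18 as lower.

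Genes of proliferation were lower in the same libraries. Of 15 such genes, 14 fell, with a median log2 fold change of -0.70, where 35.5% of all genes tested fell. MKI67 did not pass (adjusted p in edgeR = 0.0504). MCM4 and RRM2 fell 2.38-fold and 2.99-fold. Their part in the lower level of the transport genes was not tested.

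The genes lie on 18 chromosomes, and the nearby genes moved with some of them and not with others. Within 1 Mb of IPO5, all 5 tested neighbours fell, with log2 fold changes of -2.24 for FARP1, -1.29 for STK24, -0.87 for MBNL2, -0.71 for RAP2A and -0.43 for DOCK9. Within 2 Mb all 11 did. Around NUP205 on chromosome 7, 7 of 10 neighbours fell and 0 rose, among them CALD1 with a log2 fold change of -2.24 and MTPN with one of -1.21, with a median of -0.84. Of the 14 neighbours of NUP50 on chromosome 22, 9 fell and 3 rose, with a median of -0.55. XPO7 had 17 neighbours, of which 8 fell and 5 rose, with a median of -0.14 that turned to 0.056 within 0.5 Mb. NUP43 had 13 of 17 neighbours higher and 0 lower, with a median of 0.50, and all 11 neighbours of KPNA5 together had a median of 0.21, with 5 higher and 2 lower.

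On chromosome 13, which carries IPO5, NUP58, KPNA3 and XPO4, 55% of the 218 tested genes were lower, against 35.5% of all genes, with a median of -0.43. The 4 genes all fell. The neighbours of NUP58 and KPNA3 did not share this, with medians of 0.28 and 0.20, and those of XPO4 had a median of -0.53. Of the 24 genes that fell, 12 had neighbours with a median below 0, and of the 5 that rose, 2 had neighbours with a median above 0. The 12 became 11 within 0.5 Mb and 10 within 2 Mb, and the median of all genes tested was 0.02. Among genes that did not pass, XPOT had 10 of 11 neighbours lower (median -0.99) and NUP133 7 of 11 (median -0.82). NUP85, which did not pass either, had 38 of 51 neighbours higher (median 0.49). Of the other transport genes that fell at least 2-fold, PCID2 also lies on chromosome 13. TNPO3 lies on chromosome 7, where 43.4% of the 656 tested genes were lower, and DDX39A on chromosome 19, where 29.5% of 1057 were. The part of chromosomal position in these levels was not tested.

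**Figure D5:**
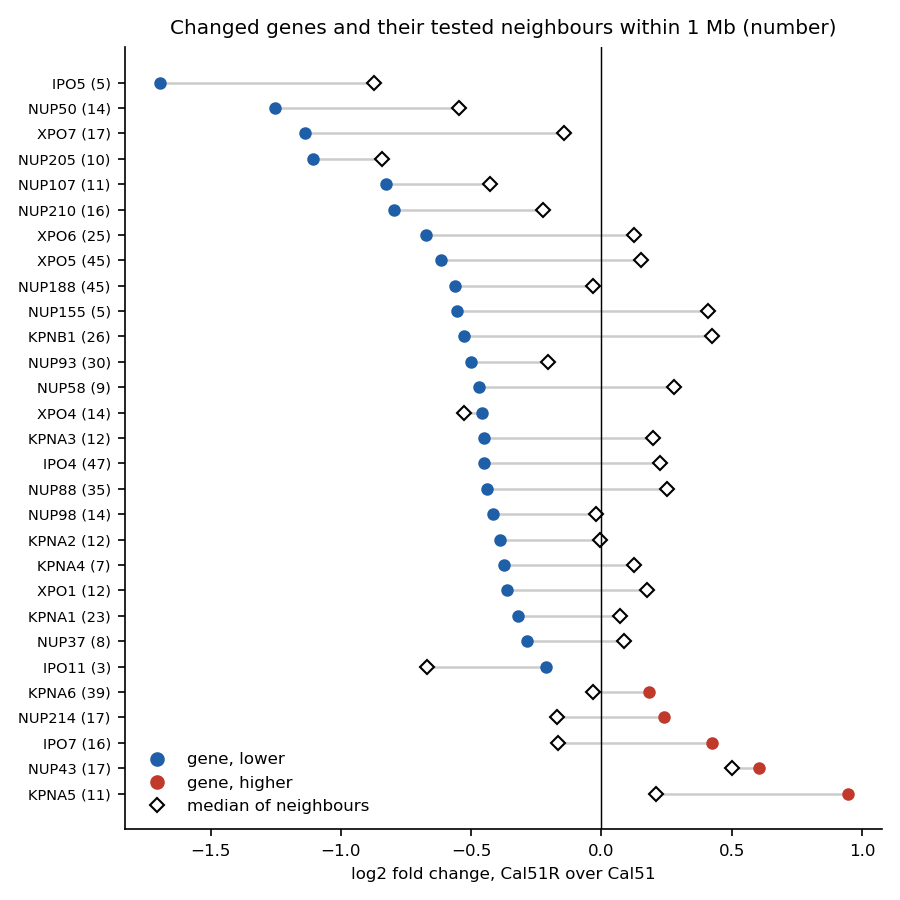
Log2 fold change (x axis) of the 29 genes that passed (circles) beside the median of their tested neighbours within 1 Mb (diamonds), with the number of neighbours in brackets. The diamonds of IPO5, NUP205 and NUP43 lie on the side of their gene, and those of KPNB1, NUP155 and NUP58 lie on the other side.

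The order of levels by TPM was the same in both lines for the first 3 genes, KPNA2 (mean 888.6 TPM in Cal51 and 803.8 in Cal51R), KPNB1 (254.8 and 209.4) and XPO1 (191.2 and 175.2), and differed below them. In Cal51 IPO5 was at rank 4 with 193 and 178 TPM, overlapped XPO1 at 197 and 185 TPM, and lay above XPO6 and NUP93 in both libraries. XPO6 (171 and 158 TPM) and NUP93 (162 and 154 TPM) overlapped there. In Cal51R NUP93 (135 and 129.5 TPM) lay above XPO6 (118 and 127 TPM) without overlap, and IPO5, at 64.9 and 71.2 TPM, was at rank 14. XPOT, IPO4, NUP62, IPO7, NUP43, NUP85, NUP98 and NUP210 then also had a higher mean than IPO5, although NUP210, at 70.0 and 72.6 TPM, overlapped it. The summed TPM of all 44 genes was 3745 ± 208.3 in Cal51 and 3393 ± 175.4 in Cal51R (mean ± SD, n = 2), without overlap between the lines. The sum of the Y complex genes went the other way, at 338.9 and 319.8 TPM in Cal51 and 360.9 and 396.7 TPM in Cal51R. Sums of the FG nucleoporins of the channel and of the cytoplasmic filaments overlapped between the lines. Each of the remaining groups had a lower sum in Cal51R, without overlap.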

How the data were processed

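RNA was measured in 2 libraries of each line. Poly(A) RNA was captured, broken up, amplified by PCR and read as DNA nanoballs, per the labels' protocols. The submitters' processing notes name RSEM 1.2.8, Bowtie2 2.2.5, HISAT2 2.1.0, DESeq and build hg38 without roles. Annotation, strand and molecular identifiers were not given in the sources used here. The deposited table holds, per the file headers, read counts (estimated, so expected counts with fractions), FPKM and TPM, the latter 2 scaled by the authors for length and library total. The authors' means were not used.

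Expected counts were rounded and tested over the whole table with edgeR 4.0.16 (R 4.3.3; TMM, filterByExpr minimum count 10, the line as the only term), with Benjamini-Hochberg adjustment over all 13674 genes tested. SE is the absolute log2 fold change over the root of F. CPM divide by library totals times TMM factors, and TPM set genes side by side. Alternatives used DESeq2 1.42.0 and limma 3.58.1. Functions were tested on simulated data. Intervals and detection limits cover counting error or the spread of these libraries only. The genes, lists and tests were chosen with earlier results of these data known. The naming rule takes, in each group by place or role, the strongest changes (at most 3 each way), the most abundant gene and any that changed 2-fold, and from each list of other genes up to 2 each way by p, with RAN, CSE1L, RANBP2 and TPR; AHCTF1, SEH1L, POM121, POM121C, RANGAP1, NUTF2, SNUPN and HIKESHI, and the remaining genes of the 44, were named besides. Positions and neighbours are those of RefSeq on GRCh38.p14 (hg38), matched on gene ID for 17154 of 17215 genes.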

Additional observations from a re-analysis of the deposited data

How the results depend on the processing

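Of the 42 genes tested, 21 kept their direction and their side of the threshold under all 14 alternatives, where for genes that did not pass only the threshold counts: 16 that fell, 3 that rose (KPNA5, NUP43 and IPO7) and 2 that did not pass (NUP35, and NUP62CL, which had a value in 11 of the 14). No gene reversed with a call. Genes that rose numbered 15 with library totals and with totals without the 10 highest genes, 14 on log2(FPKM + 1) and 14 on log2(FPKM + 0.1), against 5; the shift of the median gene by about 0.20 (log2) under these scalings accompanies it. Leaving out 1 library each, 3 to 5 rose and 22 to 25 fell, and 8180 to 9813 of all genes passed. Other nuclear transport genes that rose numbered 14, 14, 13 and 13 under those scalings, against 8, and 6 to 9 without 1 library, where 20 to 25 fell. Under the replicate block 3 genes rose and 23 fell, and 8905 of all genes passed against 9685; libraries of the same number deviated in opposite directions (r = -0.28 over genes), and the crossed pairing, chosen after seeing the data, gave 5, 24 and 10657. The numbers mark no stated pairing. The neighbours' median was -0.69 for NUP50 within 2 Mb, -1.29 and -1.05 for IPO5 within 0.5 and 2 Mb, and 0.056 for XPO7 within 0.5 Mb; the cause was not tested. KPNA shares by FPKM moved by less than 1 SD. Depth limits NUP62CL, KPNA7 and NUP210L.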

Other observations

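Genes of the nuclear lamina and envelope, to which the pore is anchored, were looked at as a neighbouring structure. Of 13 tested, 9 fell, 2 rose and 2 did not pass, with a median log2 fold change of -0.41 against 0.02 over all genes tested. Of all genes tested, 35.5% fell and 35.3% rose. The lamin gene LMNB2 was at 622 and 636 CPM in Cal51 and 391 and 358 CPM in Cal51R and fell 1.68-fold, and LEMD3, which binds lamins at the inner membrane, was at 56.3 and 52.9 CPM in Cal51 and 27.1 and 30.2 CPM in Cal51R and fell 1.90-fold. LMNA, LMNB1 and LBR, the lamin B receptor, fell 1.46-fold, 1.45-fold and 1.53-fold. The genes that rose encode the nesprins, giant proteins that link the envelope to the cytoskeleton. SYNE1 was at 15.1 and 15.2 CPM in Cal51 and 64.9 and 72.9 CPM in Cal51R and rose 4.55-fold (a log2 change of 2.19 ± 0.10 (SE); adjusted p in edgeR = 7.88e-12), and SYNE2 rose 1.43-fold.

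The paralogous mRNA export helicases DDX39A and DDX39B were unequal in their change. DDX39A was at 93.7 and 108 CPM in Cal51 and 39.8 and 35.8 CPM in Cal51R and DDX39B at 301 and 314 CPM in Cal51 and 266 and 246 CPM in Cal51R. DDX39A made up 25.0% and 26.6% of their summed TPM in Cal51 and 13.5% and 13.1% in Cal51R. By TPM the lines overlapped for DDX39B, at 410.8 and 408.8 in Cal51 and 408.9 and 405.6 in Cal51R.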
